A study of Mus musculus with 13 samples.

Results

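Chromatin accessibility was mapped by ATAC-seq in regulatory T (Treg) cells of CAT and WT mice, in 5 of the 13 libraries of the series. CAT mice carry Foxp3Cre-YFP together with the Ctnnb1 allele whose exon 3 is floxed, so that Cre driven by Foxp3 removes exon 3 of the beta-catenin gene in cells that express Foxp3. WT mice carry Foxp3Cre-YFP alone, so Cre and the yellow fluorescent protein are shared by both groups. The design speaks of triplicates. The 5 libraries used here were 2 of CAT and 3 of WT, all from male C57BL/6 mice at 21 days of age. Cells that were YFP+ and CD25+ were sorted from CD4 T cells of lymph nodes. No label ties a library to a mouse of its own. The p-values below therefore reflect only how far these libraries vary, and part of that may be technical. Members were the deposited peaks of these 5 libraries, taken by their coordinates in mm10: 27129 and 29548 peaks in CAT and 41197, 35771 and 33204 in WT. Peaks that overlapped by at least 1 bp were joined into 49014 union regions. A region is called gained when both CAT libraries and no WT library had a peak in it, lost when all 3 WT libraries and no CAT library did, and common when all 5 did.

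Treg cells are CD4 T cells that depend on the transcription factor Foxp3 and restrain immune responses. In ATAC-seq a transposase inserts sequencing adapters into DNA that is not covered by nucleosomes, so a peak marks an open stretch such as an active promoter or enhancer. Beta-catenin is the co-activator of the Wnt pathway and works with DNA-binding factors of the TCF/LEF family such as TCF1, the product of Tcf7. The part encoded by exon 3 holds the phosphorylation sites that mark the protein for degradation, and beta-catenin without it is stable.

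Promoters of 5 genes are printed where peaks were present in every library of one genotype and absent from every library of the other, and where a motif was found. Ccr8, Tnfrsf4 and Eomes, with 0 motif matches, and Itgam, with 1, also had such a promoter region and are not printed. The windows are the 250 bases before the start site, 5' to 3' on the strand of the gene, from RefSeq on GRCm38.p6, the assembly behind mm10. Capitals mark matches to any of 10 short motifs searched on both strands: CTTTGAA and CTTTGAT (TCF/LEF), TGTGGTT (RUNX), AGGTGTGA (T-box), CCGGAAG (ETS), TGANTCA (AP-1), the NF-kB motif, TTCNNNGAA (STAT), GGGCGG (KLF/SP) and TGTTTAC (FOX). Gzmb and Nkg7 had a gained region at the promoter. Gzma, Areg and Tnfrsf9 had a lost one.
Gzmb (chr14:56262335-56262584, minus strand): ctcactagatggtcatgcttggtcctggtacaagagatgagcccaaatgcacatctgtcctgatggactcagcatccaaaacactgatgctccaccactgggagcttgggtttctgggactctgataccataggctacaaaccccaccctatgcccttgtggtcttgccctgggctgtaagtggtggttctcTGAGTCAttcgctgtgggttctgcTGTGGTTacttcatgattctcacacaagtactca
Nkg7 (chr7:43436888-43437137, plus strand): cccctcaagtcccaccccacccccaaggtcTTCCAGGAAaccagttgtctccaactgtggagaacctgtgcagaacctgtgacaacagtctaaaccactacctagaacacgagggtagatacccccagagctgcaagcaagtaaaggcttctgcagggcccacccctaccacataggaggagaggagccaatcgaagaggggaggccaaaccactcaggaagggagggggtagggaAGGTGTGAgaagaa
Gzma (chr13:113100982-113101231, minus strand): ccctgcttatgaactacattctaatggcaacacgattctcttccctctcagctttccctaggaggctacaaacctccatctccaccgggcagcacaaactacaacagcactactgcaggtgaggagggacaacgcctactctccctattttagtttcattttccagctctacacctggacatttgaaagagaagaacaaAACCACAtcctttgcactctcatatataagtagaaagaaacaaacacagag
Areg (chr5:91139349-91139598, plus strand): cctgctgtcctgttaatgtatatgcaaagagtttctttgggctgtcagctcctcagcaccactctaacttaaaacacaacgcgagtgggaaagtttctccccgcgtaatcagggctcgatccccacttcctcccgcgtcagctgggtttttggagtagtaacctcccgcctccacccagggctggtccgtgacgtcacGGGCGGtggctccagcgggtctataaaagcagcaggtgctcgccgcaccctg
Tnfrsf9 (chr4:150927749-150927998, plus strand): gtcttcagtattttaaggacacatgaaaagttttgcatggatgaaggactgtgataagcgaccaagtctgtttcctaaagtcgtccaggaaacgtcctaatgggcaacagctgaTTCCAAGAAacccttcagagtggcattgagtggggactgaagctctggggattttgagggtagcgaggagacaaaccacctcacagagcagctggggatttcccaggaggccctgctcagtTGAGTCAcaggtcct
The gained region covered 107 of the 250 bases before Gzmb and 244 of those before Nkg7. The lost region covered 215 bases before Gzma, and all 250 before Areg and before the second start site of Tnfrsf9. Across the genome, 94 start sites of protein-coding genes had a gained region within 1 kb and 506 had a lost one. The RUNX letters TGTGGTT, which stand before both Gzmb and Gzma, were found before 11 of the 94 start sites with a gained region (11.7%), 22 of the 506 with a lost region (4.35%) and 3.82% of all 21262 start sites. The TCF/LEF letters CTTTGAA were found before 1 of the 94, 15 of the 506 and 4.05% of all start sites. CTTTGAT was found before 2 of the 94, 11 of the 506 and 2.82% of all. The T-box letters AGGTGTGA in the promoter of Nkg7 occurred before 2 of the 94, 4 of the 506 and 0.997% of all start sites. TGANTCA occurred before 7 of the 94, 26 of the 506 and 6.13% of all. TTCNNNGAA occurred before 7, 21 and 6.58%, and GGGCGG before 36, 258 and 42.6%. TTCNNNGAA and TGANTCA read the same on both strands. These are counts of letters in a window and do not show binding. The windows of start sites with a gained region had a median of 5 CG pairs, against 11 with a lost region and 17 with a common region.

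The CAT lists held fewer and narrower peaks than the WT lists. Peaks covered 8.84 and 9.59 Mb in CAT, against 21.8, 19.3 and 17.2 Mb in WT, a ratio of 0.475 between the means. The median peak was 254 bp wide in each CAT library, against 384, 399 and 385 bp in WT. Both CAT libraries lay below all WT libraries in each of these values. Peaks wider than 1000 bp made up 1.51% and 1.42% of the CAT lists, against 13.1%, 13.4% and 11.7% of the WT lists. The share of peaks within 1 kb of a start site was 35.7% and 33.1% in CAT, against 26.7%, 29.7% and 31.4% in WT. With the same number of widest peaks from each library that difference turned, at 35.5% in CAT and 36.4% in WT on average. With 2 against 3 libraries the two-sided exact permutation test cannot go below 0.1. The exact permutation test gave p = 0.1 for covered length and for width and p = 0.2 for the number of peaks and the promoter share (0.2 for each after adjustment over these 4 values). Read depth is unknown, and in bulk samples fewer cells with an open region and less openness per cell cannot be told apart. The median of the authors' pileup signal over each whole list was 8.95 and 8.34 in CAT, against 13.3, 13.8 and 12.85 in WT, and its part in the results below was not tested.

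**Figure D1:**
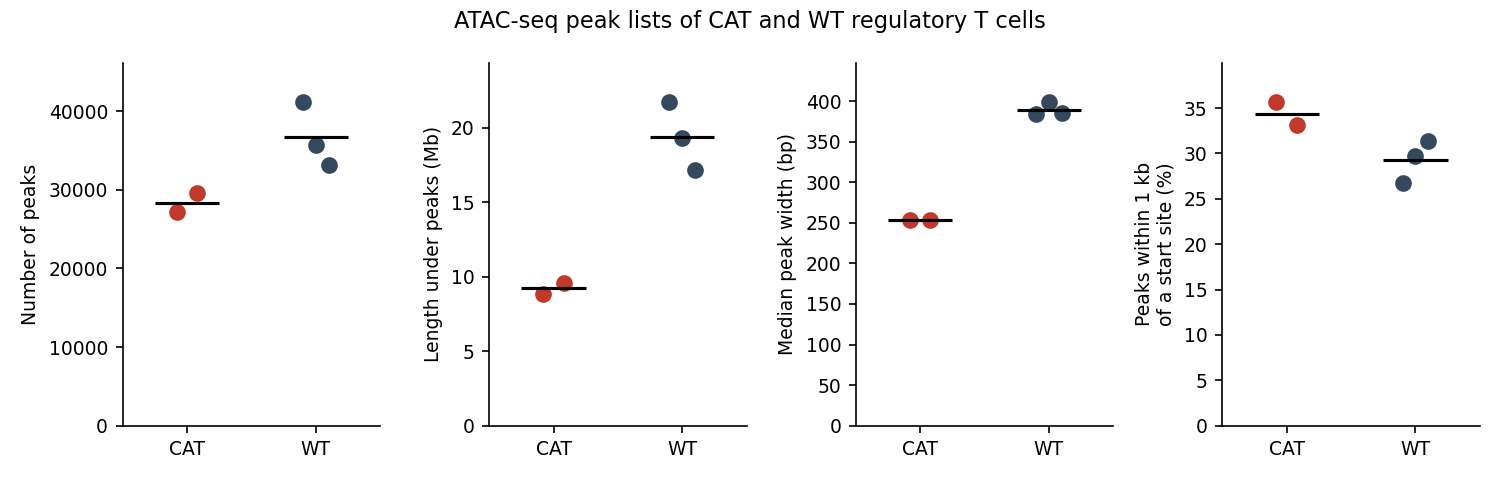
Number of peaks, length under peaks (Mb), median peak width (bp) and share of peaks within 1 kb of a start site (%) in each ATAC-seq library, CAT left and WT right, with a point for each library and a line at the mean of the genotype. Both CAT libraries lie below all WT libraries in the first 3 panels and above them in the last, where 33.1% in CAT stands next to 31.4% in WT.

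Most of what was open in CAT was also open in WT. The CAT libraries shared 79.7% to 86.6% of their regions with a given WT library, while a WT library shared 55.8% to 70.2% of its regions with a given CAT library. Libraries of the same genotype shared 80.7% and 88.2% of their regions within CAT and 76.8% to 96.0% within WT. Of the union regions, 19815 (40.4%) were common, 1929 (3.94%) were gained and 6054 (12.4%) were lost. The other 21216 were present in part of a group or in a mixture of both. The balance of gained and lost regions depended on list length: with the same number of widest peaks from each library there were 2776 gained and 2775 lost regions. Without peaks under 200 bp there were 508 gained and 7295 lost regions. There were 4068 gained regions without CAT library 1 and 3114 without CAT library 2, where a single CAT library decides, and between 2004 and 2338 when a WT library was left out.

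Gained regions were narrow, with a median of 210 bp, against 394 bp for lost and 780 bp for common regions. Gained and lost regions lay mostly away from start sites: 7.45% of gained and 11.8% of lost regions were within 1 kb of a start site, against 44.4% of common regions. A further 49.9% of gained and 46.9% of lost regions lay in gene bodies. Their median distance to the nearest start site was 19355 bp for gained and 17670 bp for lost regions, against 4230 bp for common regions. The widest gained regions included the promoters of Nkg7 (698 bp) and of Cdk14, a cyclin-dependent kinase (chr5:5380049-5380834, 786 bp). Others lay between genes, nearest to the start sites of Man2b2 (789 bp) and of Apobec1 (729 bp), and the widest was on chromosome 18 (1244 bp). The widest lost regions lay in a gene body nearest to Cenpo (chr12:4219412-4221658, 2247 bp), at the promoter of Sema4c (2201 bp), in Ryr2 (2063 bp), near Rbm43 (1938 bp) and at the promoter of Ccrl2 (1925 bp).

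**Figure D2:**
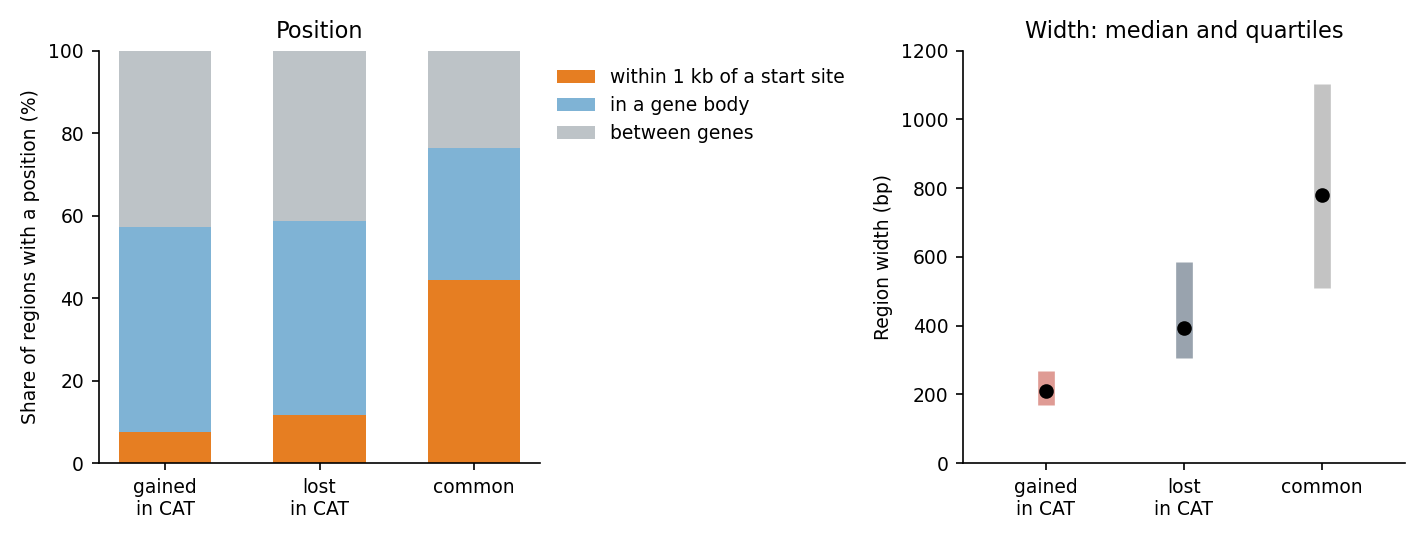
Left, share of gained, lost and common regions (%) within 1 kb of a start site, in a gene body and between genes. Right, median width (point) and quartiles (bar) of the regions in bp. Promoters hold 7.45% of gained and 11.8% of lost regions, against 44.4% of common regions, and the median widths are 210, 394 and 780 bp.

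To compare gene loci, the base pairs under peaks were summed over each protein-coding gene plus 5 kb on each side, called the open length. Peak lengths are given below in bp as deposited. The test used log2 of the open length plus 100 bp, after scaling each library to the same total, so a log2 change is a change in the share of a library's open length and not in bp. At loci with 0 bp in a genotype its size depends on the 100 bp added. Of 14448 loci tested, 2026 (14%) were more open and 1563 (10.8%) less open in CAT at a limma adjusted p below 0.05, with a median change of 0.11. Without scaling the split turned to 174 more open and 10890 less open, with a median change of -0.83. Without WT library 1 the counts were 390 and 524, and without WT library 2 they were 451 and 632. Without WT library 3, 1184 loci were more open and 1062 less open, and without CAT library 1 there were 1000 and 1495. Of 65 named loci past the threshold, 42 passed it without WT library 1 and 42 without WT library 2, 50 without WT library 3 and 53 when CAT library 1 or CAT library 2 alone was left out. Ikzf2 lost its call without WT library 1, Nrp1 without WT library 2, and Nav2 without WT library 2 or 3. Eomes, Tnfrsf4, Mcm3 and Nfia lost theirs without WT library 1 and without WT library 2, Gzmb without any one library but WT library 3, and Itgam without CAT library 2. Irf4, Ccr6, Ccr7, Itga4, Rin3, Smad3 and Tle4 each lost theirs without 3 or more of the 5. Gained and lost regions, which do not use the scaling, are given beside the loci described most fully. Of 21883 loci, 1092 (4.99%) held at least 1 gained region and 3208 (14.7%) at least 1 lost region.

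The Ctnnb1 locus had a common region at its promoter (chr9:120933169-120934262) and no gained or lost region. Its open length was 503 and 540 bp in CAT, against 1238, 1034 and 467 bp in WT, and its change was not past the threshold (0.33, limma adjusted p = 0.408). Neither the peaks nor the RNA counts per gene can show the removal of exon 3, so they do not check the genotype. The defining loci of Treg cells held peaks in every library, though at Foxp3 the only common region lay upstream of the gene. Foxp3, Il2ra (the CD25 chain used in the sort), Ctla4, Ikzf2, Cd3e and Cd4 had peaks in all 5, with 2961 and 3615 bp in CAT over the 6 loci, against 12124, 11380 and 9466 bp in WT. Cd8a had no peak in CAT and 119 bp in WT library 1, and Lyz2, Alas2, Pdpn, Alb and Ttr had no peak in any library. Among 5 markers of CD8 T and NK cells 3 had a gained region (Ncr1, Klrb1c and Klrk1), and among 5 myeloid markers 3 did (Cd68, Itgam and Spi1), against none of the 6 Treg, 5 B cell, 3 erythroid and 4 stromal and epithelial markers. A gained region stood at 4.99% of all loci. In wider marker lists gained regions stood at 5 of 11 CD8 T and NK, 4 of 12 myeloid, 1 of 11 B cell (Bank1) and 1 of 10 stromal and epithelial loci (Cdh5). Of 9 myeloid loci tested 4 were more open and 2 less open, where 14% and 10.8% of all loci were. Without scaling 1 was more and 2 less open, against 174 and 10890 of all 14448 loci. When peaks under 200 bp were left out, 0 of the 12 myeloid loci held a gained and 2 a lost region. Over all loci the shares were then 1.42% and 17.3%. Of 8 myeloid genes tested in RNA 4 were higher and 4 lower in CAT, where 25.5% and 23.5% of all genes were. Summed open length at the CD8 T and NK markers was 1208 and 1029 bp in CAT, against 1735, 1716 and 1153 bp in WT. At the myeloid markers it was 1485 and 1901 bp in CAT, against 1495, 1396 and 1276 bp in WT.

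Genes of Treg identity lost open regions at most of their loci. Of 27 loci in this list, 19 (70.4%) held a lost region, against 14.7% of all loci, and 5 (18.5%) held a gained one. Loci of the list are longer than most, at a median of 48.8 kb against 27.2 kb, so each region was also counted once. Of the 203 regions at these loci 43 (21.2%) were lost and 6 (2.96%) gained, against 11.3% lost and 3.45% gained over all protein-coding loci. The number of loci with a lost region was 15 of 27 with equal numbers of widest peaks, when it was 7.54% over all loci. With equal numbers of widest peaks 9 of the 27 (33.3%) held a gained region, against 7.33% of all loci. With any library left out 20 to 22 held a lost region. By open length 9 of the 27 were less open and 1, Mbd2, was more open, where 10.8% and 14% of all loci were. Without scaling 24 were less and 0 more open, against 10890 and 174 of all 14448 loci.

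At Foxp3 the open length was 201 and 317 bp in CAT, against 648, 604 and 637 bp in WT. Both CAT values lay below all WT values, but relative to the whole library the change of -0.20 was not past the threshold (limma adjusted p = 0.52). The lost region lay in the gene, 4223 to 4621 bp from its start (chrX:7583899-7584297), with 367, 328 and 281 bp in WT, and it overlapped a TCF1 peak. The stretch corresponds to the intronic element CNS2, which is known to stabilize Foxp3 expression in dividing Treg cells. The only common region lay upstream, from -5704 to -4645 bp relative to the gene start, so partly outside the 5 kb counted. It had 702 and 685 bp in CAT, against 985, 774 and 833 bp in WT. No region lay within 1 kb of a start site of Foxp3 in any library, CAT or WT.

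Ctla4, which encodes an inhibitory receptor that competes with CD28, kept its promoter peak (227 and 167 bp in CAT, against 314, 283 and 263 bp in WT) and had 4 lost regions. Of these 3 lay in the gene, at chr1:60910834-60911174, chr1:60911647-60911975 and chr1:60913310-60913706. Its open length was 541 and 167 bp in CAT, against 1794, 1437 and 1223 bp in WT. The groups do not overlap in unscaled bp, in which 10890 of all 14448 loci tested were less open in CAT. The scaled change of -1.03 was not past the threshold (limma adjusted p = 0.0907). Ikzf2, which encodes the Treg transcription factor Helios, had 7 lost regions. Its open length fell to 899 and 1379 bp in CAT, against 5668, 5655 and 4008 bp in WT (log2 change -1.07, SE 0.17, limma adjusted p = 0.00872). The longest of the lost regions was chr1:69637999-69638883, with 813, 674 and 682 bp in the WT libraries. Nrp1, a surface receptor of Treg cells of thymic origin, had 3 lost regions and 1048 and 1349 bp in CAT, against 4337, 4394 and 4689 bp in WT (-0.81, limma adjusted p = 0.0141).

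The genes through which Treg cells activate TGF-beta lost most of their open chromatin. Lrrc32 encodes GARP, which holds latent TGF-beta on the cell surface. It had no peak in either CAT library, against 1338, 791 and 805 bp in WT, and its 3 lost regions were just before the start or in the body of the gene. Itgb8 encodes the integrin chain that releases TGF-beta from its latent form. It had 151 and 0 bp in CAT, against 3491, 3014 and 2630 bp in WT, with 3 lost regions in the gene body, the longest at chr12:119184962-119186022. Both loci were less open (log2 change -3.09 and -3.71, limma adjusted p = 0.00175 and 0.00421). Over the 17 loci of the TGF-beta list, with a median length of 78.5 kb, 10 (58.8%) held lost regions and 2 (11.8%) held gained ones, against 14.7% and 4.99% of all loci. With equal numbers of widest peaks 3 (17.6%) held lost and 4 (23.5%) held gained regions, against 7.54% and 7.33% of all loci. Of 16 loci tested 3 were less open and 5 more open, where 10.8% and 14% of all loci were. Without scaling 15 were less open and 0 more open, against 10890 and 174 of all 14448 loci. The 5 more open loci were Tgfb3, Smad2, Smad3, Smad7 and Furin, at 0.35 to 0.71, and without scaling the change of Smad3 was -0.67.

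Members of the TNF receptor family were less open too. Tnfrsf4 (OX40), a co-stimulatory receptor, had no open length in CAT, against 826, 707 and 225 bp in WT (-2.36, limma adjusted p = 0.0144), and a lost region at its promoter. It also had 1 common region that crossed the edge of the 5 kb counted, with its CAT peaks outside. The WT bp may include part of that common region. Tnfrsf9 (4-1BB) had 756 and 573 bp in CAT, against 3422, 3673 and 2865 bp in WT (-1.18, limma adjusted p = 0.00654). Its lost promoter region, chr4:150927221-150928226, had 732, 809 and 469 bp in WT. Tnfrsf18 (GITR) had 764 and 486 bp in CAT, against 2710, 2144 and 1836 bp in WT (-0.72, limma adjusted p = 0.0454). At all 3 loci both CAT libraries lay below all WT libraries in unscaled bp. Over the 28 loci of the NF-kB and TNF family list 9 were less open and 4 more open, where 10.8% and 14% of all loci were. Without scaling 21 were less and 0 more open, against 10890 and 174 of all 14448 loci. Lost regions stood at 11 of the 28 (39.3%) and gained ones at 2 (7.14%), against 14.7% and 4.99% of all loci. With equal numbers of widest peaks this turned to 7 (25%) with lost and 10 (35.7%) with gained regions, against 7.54% and 7.33% of all loci.

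Loci of effector Treg cells held both lost and gained regions. Of 30 loci 14 (46.7%) held lost regions and 7 (23.3%) held gained ones, against 14.7% and 4.99% of all loci. With equal numbers of widest peaks the balance turned to 7 loci (23.3%) with lost and 12 (40%) with gained regions. Over all loci the shares were then 7.54% and 7.33%. Of 29 loci tested 6 were less open and 2 (Gzmb and S100a4) more open, where 10.8% and 14% of all loci were. Without scaling 23 were less and 2 more open, against 10890 and 174 of all 14448 loci. Ccr8, a chemokine receptor of tissue and activated Treg cells, had no peak in CAT, against 1245, 1046 and 1075 bp in WT (-3.30, limma adjusted p = 0.000979), and lost a promoter region at chr9:120090987-120092216. Areg encodes amphiregulin, a growth factor made by tissue Treg cells. Its promoter region, chr5:91139223-91139969, was lost, with 0 bp in CAT, against 643, 747 and 653 bp in WT (-2.68, limma adjusted p = 0.00339). In both genes every WT library had a peak over the start site and no CAT library did. Tigit, Irf4 and Itgae were less open, at -0.79, -0.93 and -0.57. Prdm1 (-0.01), Il1rl1 (0.08), Gata3 (0.26), Klrg1 (1.42) and Il10 (-0.46) were not past the threshold, with limma adjusted p of 0.0637 to 0.953. Il10 had 110 and 0 bp in CAT, against 210, 119 and 190 bp in WT.

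**Figure D3:**
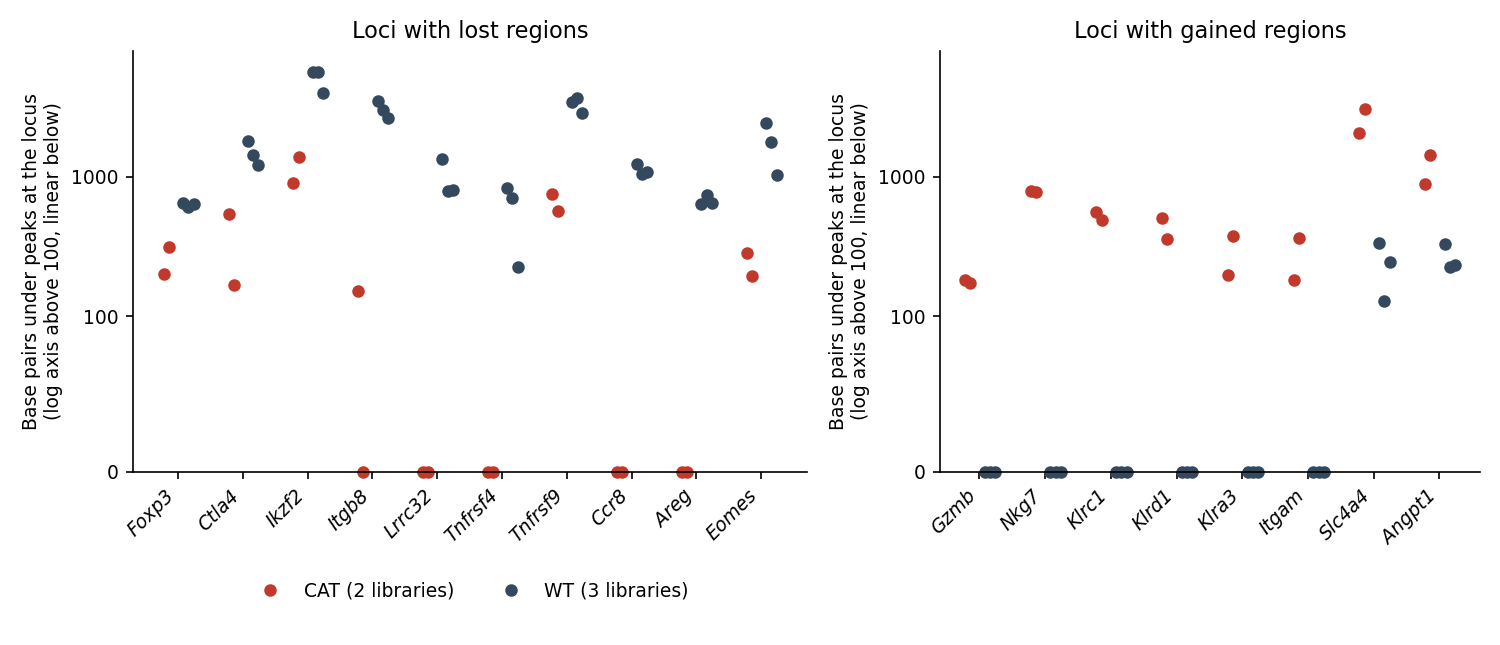
Base pairs under peaks at the locus (gene plus 5 kb on each side) in each library, on an axis that is logarithmic above 100 and linear below it, with CAT points left of WT points for each gene. Left, 10 loci with lost regions, where both CAT libraries lie below all WT libraries. Right, 8 loci with gained regions, where both lie above, with 6 of the 8 at 0 in all WT libraries. Values are not scaled, and without scaling 10890 of all 14448 loci tested were less open in CAT.

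Gained regions stood at genes of cytotoxic lymphocytes. Of 24 loci in the Th1 and cytotoxic list 11 (45.8%) held a gained region, against 4.99% of all loci, and 6 held a lost one. Of their 90 regions 13 (14.4%) were gained and 7 (7.78%) lost, against 3.45% and 11.3% over all protein-coding loci. The number of loci with a gained region was 11 to 13 with any library left out and 12 with equal numbers of widest peaks, but 3 without peaks under 200 bp, when it was 1.42% over all loci. Of 22 loci tested for open length 9 were more open (Il12rb2, Gzmb, Prf1, Nkg7, Ccl5, Klrd1, Klrc1, Il18r1 and Cxcr6) and 2 less open (Eomes and Hopx). Over all loci 14% were more and 10.8% less open. Without scaling 5 were more open and 6 less open, against 174 and 10890 of all 14448 loci.

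Gzmb encodes granzyme B, a protease of cytotoxic granules. A promoter region, chr14:56262243-56262441, was open in CAT at 183 and 174 bp and had no peak in WT (1.99, SE 0.42, limma adjusted p = 0.0182). Both CAT peaks were under 200 bp, so Gzmb holds no gained region when such peaks are left out. Nkg7, a protein of cytotoxic granules, had 797 and 780 bp in CAT, against 0 bp in all WT libraries (3.82, limma adjusted p = 0.00115). Its promoter region, chr7:43436434-43437131, was among the 5 widest gained regions of the genome. Ccl5, a chemokine of effector and NK cells, had 151 and 217 bp in CAT, against 0 bp in WT (2.01, limma adjusted p = 0.0182). For each of these 3 genes every CAT library had a peak and no WT library did.

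The opposite held for a pair of genes of the same list. Gzma, which encodes granzyme A, lost a promoter region, chr13:113100822-113101196, with 348, 321 and 177 bp in WT. CAT library 1 had 183 bp elsewhere at the locus and CAT library 2 none, and the change of -0.63 was not past the threshold (limma adjusted p = 0.463). Eomes, a T-box factor of cytotoxic cells, had 285 and 195 bp in CAT, against 2417, 1764 and 1034 bp in WT (-1.50, limma adjusted p = 0.0122). Its promoter region, chr9:118478559-118479493, was lost.

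The natural killer gene complex, chosen after its values were seen, held 20 gained, 2 lost and 32 common regions among 87, from Klrb1c to Klra2 on chromosome 6 (2469 kb). Of all union regions 3.94% were gained, 12.4% lost and 40.4% common. It encodes lectin-like receptors by which NK cells and some T cells read MHC class I and related ligands. Klrc1 (NKG2A) had 556 and 487 bp in CAT and Klrd1 (CD94), its partner chain, 504 and 359 bp, against 0 bp in WT for both. The log2 changes were 3.28 and 3.02 (limma adjusted p = 0.00251 and 0.00416). Klrc2, Klrc3 and the Ly49 genes Klra1, Klra2, Klra3, Klra5, Klra6, Klra7 and Klra9 each had peaks in both CAT libraries and in no WT library. Klra3, for example, had 198 and 374 bp in CAT, and Klra9 209 and 82 bp. The Klra genes are near copies of each other, and the assignment of reads among them is uncertain. Klrk1 (NKG2D), which also had peaks in WT, had 471 and 459 bp in CAT, against 243, 333 and 331 bp in WT (1.37, limma adjusted p = 0.0125). Ncr1 (NKp46), a marker of NK cells on chromosome 7, had 246 and 223 bp in CAT and no peak in WT. At Klrb1c (NK1.1) the open length was 118 and 131 bp in CAT, against 335, 264 and 105 bp in WT, with 1 gained and 1 lost region. The part of other cells in the sorted population in these regions was not tested.

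The loci with the most gained regions were mostly outside the gene lists. Slc4a4, a sodium bicarbonate transporter, had 8 gained regions along its gene body and no lost one. Its open length was 2051 and 3041 bp in CAT, against 335, 129 and 247 bp in WT (3.93, SE 0.26, limma adjusted p = 0.000789). App, the amyloid precursor, had 5 gained regions and 1736 and 2433 bp in CAT, against 1316, 913 and 810 bp in WT (1.99, limma adjusted p = 0.00125). Angpt1, which encodes the ligand angiopoietin 1, had 4 gained regions and 891 and 1437 bp in CAT, against 333, 225 and 232 bp in WT. At these 3 loci both CAT libraries lay above all WT libraries even in unscaled bp. The loci were picked for gained regions, which add open length in CAT only, so these values are not separate support. Emilin2, Zfhx3, Nav2, Rin3 and Ikzf1 (Ikaros, a lymphoid transcription factor) had 4 gained regions each. Nav2 and Rin3 were more open at 0.98 and 0.52 but turned to -0.06 and -0.52 without scaling, and Ikzf1 (0.20) was not past the threshold (limma adjusted p = 0.138).

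The largest increases of open length were at Lim2 (4.26), Slc4a4, Gas7 (3.88), Nkg7, Pid1 (3.73), Soat2 and Igfbp6 (3.59 each) and Abcd2 (3.50). Lim2 and Nkg7 are neighbours and share the gained region at the start of Nkg7. Lim2 had 1008 and 1178 bp in CAT and 0 bp in WT, and a further gained region of its own at chr7:43430581-43431031. Soat2 and Igfbp6 share 1 region, so their values are not independent. Itgam (CD11b), an integrin chain of myeloid and NK cells, gained a promoter region at chr7:128062546-128062728 with 183 and 138 bp in CAT and had no peak in WT (2.42, limma adjusted p = 0.0118). This region too is absent when peaks under 200 bp are left out.

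The loci with the most lost regions were long genes, among them several transcription factors. Ldlrad4, a regulator of TGF-beta signalling, had 9 lost regions, and Atxn1, Foxp1, Tox and Nfia had 8 each. Ldlrad4, Foxp1, Tox, Nfia and Jazf1 also had 1 gained region each. Foxp1 encodes a factor of resting T cells, and Tox one of T cell development and exhaustion. Atxn1 had 849 and 921 bp in CAT, against 7231, 7602 and 5226 bp in WT (-1.76, limma adjusted p = 0.000838). Foxp1 had 3949 and 4419 bp in CAT, against 18145, 14327 and 12152 bp in WT (-0.73, limma adjusted p = 0.00379). Sh3rf1 and Jazf1, like Ikzf2, had 7 lost regions each. All 8 of these loci were less open after scaling, and in each of them both CAT libraries lay below all WT libraries in unscaled bp. The loci were picked for lost regions, which add open length in WT only, so these values are not separate support. Without scaling 10890 of all 14448 loci tested were less open.

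The largest decreases were at Sh3gl3, Ryr2, Pard3b, Gm3512, Ntn4, Gm3752, Gm3739 and Zbtb7c, at -3.86 to -4.21. Ryr2, a calcium release channel, had 0 bp in CAT, against 2422, 2462 and 1504 bp in WT. Ntn4, which encodes a netrin, had 129 and 0 bp in CAT, against 4209, 3566 and 2727 bp in WT, with 4 lost regions in its gene body. Sh3gl3, an endophilin, had 0 and 113 bp in CAT, against 3986, 3810 and 3559 bp in WT. At all 3 the WT values were many times the pseudocount of 100 bp. Gm3512, Gm3752 and Gm3739 are neighbouring predicted genes that may be near copies, and their values are uncertain.

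Lists of other T helper programs held more lost than gained regions with the full peak lists. Lost regions were 20.5% of the 39 regions of the Th17 list, 18.9% of the 90 of the follicular list and 17.1% of the 35 of the Th2 list, against 11.3% over all protein-coding loci. Gained regions were 0, 1 and 1 of them. With equal numbers of widest peaks the Th17 list turned to 2 gained and 1 lost, and the follicular list had 3 gained and 6 lost. Over the genome there were then 2776 gained and 2775 lost regions. Tox alone held 8 of the 17 lost regions of the follicular list. Ccr6, a Th17 homing receptor, had 0 bp in CAT, against 326, 154 and 520 bp in WT (-1.79, limma adjusted p = 0.0393). Cxcr5, the follicular homing receptor, had 205 and 217 bp in CAT, against 2304, 1595 and 1556 bp in WT (-1.75, limma adjusted p = 0.00141). Of the 31 loci of T cell receptor signalling 6 were less and 6 more open, where 10.8% and 14% of all loci were. Without scaling 26 were less and 0 more open, against 10890 and 174 of all 14448 loci. Lost regions stood at 16 of the 31 and gained ones at 5. But these 31 loci are long, with a median of 58.0 kb against 27.2 kb. The share of their regions that was lost, 13.0%, was near the 11.3% over all loci. Themis, which tunes T cell receptor signals in thymocytes, had 4 of these and 466 and 483 bp in CAT, against 3282, 3846 and 2889 bp in WT (-1.62, limma adjusted p = 0.00157). Cd5 and Cd4 were less open too, at -1.18 and -0.92.

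At the other end, loci of proliferation genes had 1 lost and 2 gained regions among 49. Of these 27 loci 6 were more open and 2 less open, where 14% and 10.8% of all loci were. Without scaling 0 were more open and 19 less open, against 174 and 10890 of all 14448 loci. Mcm3, a subunit of the replicative helicase, had 756 and 798 bp in CAT, against 842, 797 and 871 bp in WT (0.87, limma adjusted p = 0.0114), and without scaling its change was -0.09. Housekeeping loci had 4 lost regions (8.70%) and no gained one among 46, and interferon loci 4 lost (6.90%) and 1 gained among 58. A lost region stood at 4 of 25 housekeeping and 4 of 27 interferon loci (14.8%), against 14.7% of all loci. Of 23 loci of resting and homing T cells 3 were more open and 2 less open, where 14% and 10.8% of all loci were. Without scaling 0 were more and 16 less open, against 174 and 10890 of all 14448 loci. Of the 191 regions of these 23 loci 19 (9.95%) were lost and 4 (2.09%) gained. Over all protein-coding loci 11.3% were lost and 3.45% gained. Foxp1, which was less open, held 8 of the 19 lost regions. Ccr7 and Itga4 were more open at 0.88 and 0.52. The bp at Ccr7 hardly differed, at 404 and 386 in CAT, against 458, 361 and 364 in WT, and its change without scaling was 0.0075. The bp at Itga4 were 1391 and 1219 in CAT, against 2142, 1675 and 1812 in WT, so its sign turned to -0.49 without scaling. Bach2 (-0.26) and Satb1 (-0.08) were not past the threshold, with limma adjusted p of 0.0867 and 0.572.

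**Figure D4:**
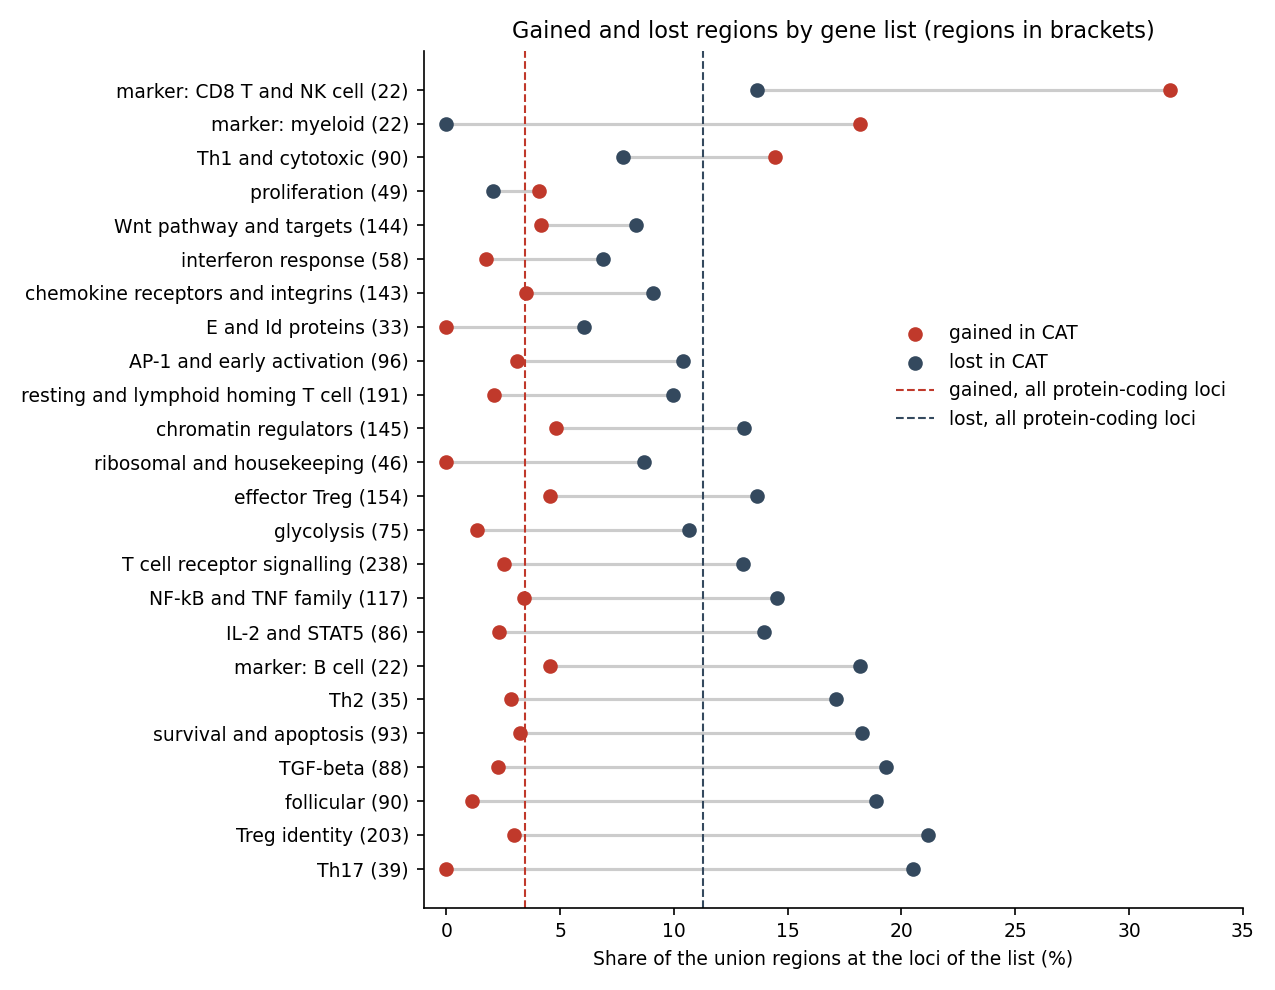
Share of the union regions at the loci of each gene list that were gained (red) or lost (dark) in CAT (%), with dashed lines at 3.45% gained and 11.3% lost over all protein-coding loci. Shown are lists with at least 30 regions and the 3 marker lists with 22; gained shares exceed lost shares in the CD8 T and NK, myeloid, Th1 and cytotoxic, and proliferation lists, and the B cell markers had 4.55% gained and 18.2% lost.

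Genes of the Wnt pathway went both ways. Of 39 loci 15.4% held a gained and 28.2% a lost region, against 4.99% and 14.7% of all loci. Of 35 tested 3 (Znrf3, Tle3 and Tle4) were more open and 4 (Tle1, Bcl9l, Ctnnbip1 and Sox4) less open. Over all loci 14% were more and 10.8% less open. Without scaling 0 were more and 27 less open, against 174 and 10890 of all 14448 loci. The 144 regions of the list held 6 gained (4.17%) and 12 lost (8.33%), against 3.45% and 11.3% over all protein-coding loci. With equal numbers of widest peaks the loci of the list held 13 gained and 4 lost regions, when there were 2776 gained and 2775 lost over the genome. The change of Tle4 turned to -0.63 without scaling. Axin2, a direct target of beta-catenin, had a common promoter region with 646 and 620 bp in CAT, against 1054, 1042 and 765 bp in WT (0.45, limma adjusted p = 0.0616). Tcf7 had 584 and 623 bp in CAT, against 1170, 1717 and 808 bp in WT (0.10, limma adjusted p = 0.797). Lef1 (0.35) and Id3 (0.41) were not past the threshold either.

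Gained regions hardly met TCF1 peaks, which were called in WT Treg cells of mice of 10 to 12 weeks from lymph nodes and spleen. Of the 1929 gained regions 7 (0.363%) overlapped a TCF1 peak, against 144 (2.38%) of lost, 1.68% of other and 4684 (23.6%) of common regions. Away from promoters the order was the same. In gene bodies 1 of 931 gained regions (0.107%) did, against 69 of 2735 lost (2.52%) and 1094 of 6151 common regions (17.8%). The TCF1 list comes from 1 WT library with no replicate, gained regions were by definition without a peak in WT, and gained regions are narrower, so the shares are a description. Lost regions with a TCF1 peak included those of Foxp3 and 1 each at Ikzf2, Lrrc32 and Tnfrsf4.

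At common regions the peaks were narrower in CAT in bp, with medians of 332 and 346 bp in CAT, against 697, 657 and 601 bp in WT. After centring on each library's median, 2065 of 19815 (10.4%) were wider and 1260 (6.36%) narrower in CAT at a limma adjusted p below 0.05. These calls rest on all libraries being kept: without WT library 1 none was called in either direction, and without WT library 2 there were 5 and 26. Without WT library 3 they were 657 wider and 455 narrower, without CAT library 1 they were 749 and 1090, and without CAT library 2 they were 1233 and 1358, so that either CAT library left out turned the balance. Without centring 22 were wider and 13147 narrower. No single region is therefore named for its width.

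RNA-seq of 3 CAT and 3 WT libraries from the same genotypes was set beside the loci; fewer cells with an RNA and less RNA per cell cannot be told apart. Of 13193 genes tested, 3369 (25.5%) were higher and 3097 (23.5%) lower in CAT at an edgeR adjusted p below 0.05. Genes at less open loci were higher at 331 and lower at 278 of 1035 (32.0% and 26.9%). Genes at more open loci were higher at 426 and lower at 357 of 1644 (25.9% and 21.7%). Over all 11108 loci tested in both readouts 25.8% were higher and 23.8% lower, and the median log2 fold change was 0.04, 0.01 and 0.00 in these 3 sets. Genes with gained and no lost regions were higher at 28.6% and lower at 22.9% of 476, and those with lost and no gained regions at 30.4% and 27.7% of 2141. For genes with neither the shares were 24.6% and 22.4% of 8791.

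At several Treg loci open length and RNA differed in direction. Of the 19 Treg identity genes with a lost region 12 were higher and 6 lower in RNA, and of all 27 genes of the list 16 were higher and 8 lower. Among all genes tested 25.5% were higher and 23.5% lower. Ccr8, which had no peak in CAT, had 78.9, 75.2 and 57.8 CPM (fragments scaled to library size) in CAT, against 17.9, 18.3 and 15.97 CPM in WT (log2 fold change 2.02, edgeR adjusted p = 4.32e-06). Areg had 30.4, 17.8 and 12.7 CPM in CAT, against 1.78, 2.70 and 1.77 CPM in WT (3.27, edgeR adjusted p = 5.66e-05). In both genes the RNA of all CAT libraries lay above that of all WT libraries while the promoter peak was lost. Lrrc32 (1.23), Tnfrsf4 (1.53) and Tnfrsf9 (1.14) were also higher in RNA in CAT, and Ikzf2 (0.23) was not past the threshold (edgeR adjusted p = 0.061). Ctla4 (1.95) and Foxp3 (0.59) were higher in RNA as well. Their open length changes of -1.03 and -0.20 were not past the threshold, so no difference in direction is shown at Ctla4 and Foxp3. Nrp1 and Itgb8 were lower in both readouts, with RNA changes of -4.33 and -2.48.

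At cytotoxic loci with gained regions most genes were higher in RNA. Of 11 such genes in the Th1 and cytotoxic list 10 were tested in RNA, and 8 were higher and 0 lower. Of the 6 genes of the list with a lost region 5 were higher and 0 lower, and of all 23 tested 20 were higher, where 25.5% of all genes were. Gzmb had 1796, 1298 and 781 CPM in CAT, against 14.1, 7.05 and 8.13 CPM in WT (7.06, edgeR adjusted p = 1.84e-06). Nkg7 had 41.1, 39.1 and 22.4 CPM in CAT, against 10.3, 13.4 and 9.20 CPM in WT (1.64, edgeR adjusted p = 0.0004). In both every CAT value lay above every WT value. Klrc1 was at a low level, 4.40, 3.14 and 1.07 CPM in CAT, against 0.27, 0.159 and 0.0368 CPM in WT, and Klrd1, Ncr1 and the Klra genes had too few fragments to test. Gzma and Eomes, whose promoter regions were lost, were higher in RNA at 11.51 and 5.00. Gzma had 3665, 3003 and 1099 CPM in CAT, against 1.78, 0.286 and 0.699 CPM in WT. Slc4a4, Angpt1 and Lim2 were not expressed enough to test. Of other loci with large increases Gas7 (2.26) and Soat2 (0.84) were higher in RNA, and Pid1 (-0.42) was not past the threshold (edgeR adjusted p = 0.269).

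**Figure D5:**
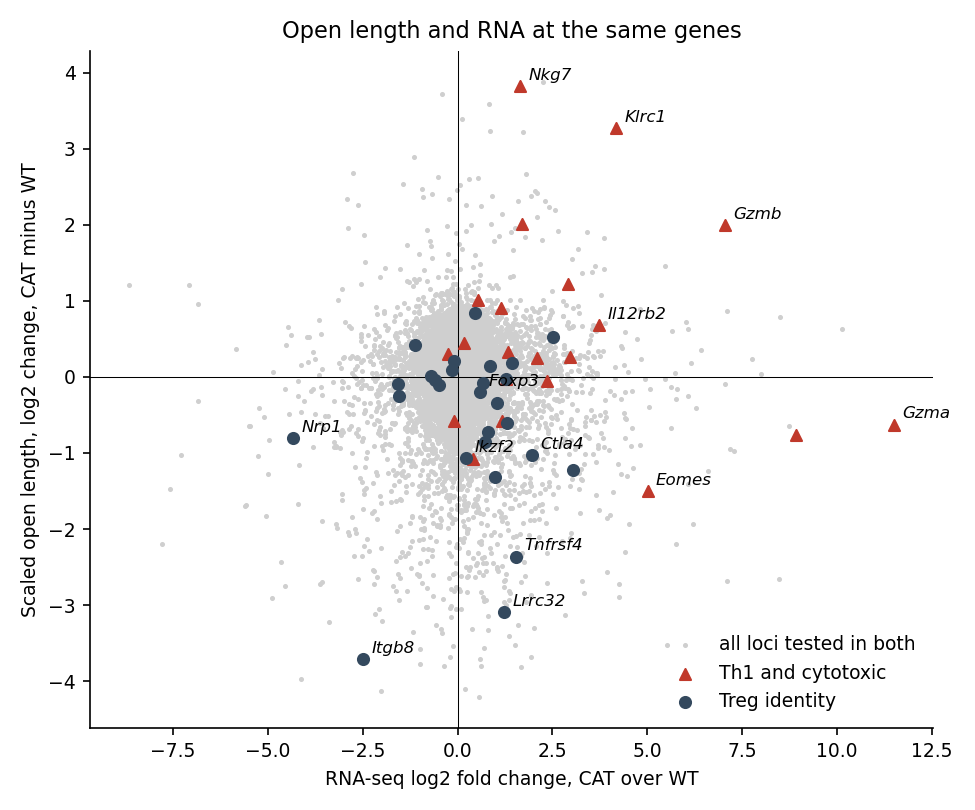
RNA-seq log2 fold change (CAT over WT) on the x axis and change of scaled open length (log2, CAT minus WT) on the y axis for 11108 loci tested in both (grey), with the Th1 and cytotoxic list as red triangles and the Treg identity list as dark points. Gzmb, Nkg7 and Klrc1 lie at the upper right, Tnfrsf4, Lrrc32 and Ctla4 at the lower right, and Itgb8 and Nrp1 at the lower left.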

How the data were processed

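ATAC-seq peaks of 2 CAT and 3 WT libraries were the main readout. Tools listed for the series, per the submitters' processing notes, are MACS2, HOMER and Bowtie with the build mm10, and no role or version comes with them. Peak thresholds, read filters and the RNA aligner: not given in the sources used here. There is 1 peak list per library. Each deposited peak list gives, per the file headers, a pileup signal, a fold enrichment, and −log10 p and −log10 q values. Within a list these scores did not follow peak width (Spearman 0.038 to 0.055 for pileup across peaks), so peaks were used by their coordinates and scores only as list medians. The deposited RNA table gives, per the file headers, an estimated count of fragments and an FPKM value, in a table the authors name as Cuffdiff output, with 24195700 to 31609600 fragments per library. Its libraries carry a condition and a number from 0 to 2, which could not be matched to single samples, so they were used by group. Of its estimated counts 92.9% were whole within 0.001, and all were rounded. Left out were 25 identifiers turned into dates and 13 genes with a failed estimate.

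Computed here: union regions by overlap of 1 bp, start sites and gene spans from RefSeq GRCm38.p6 (start sites for 17491 of 21883 protein-coding genes, 79.9%, none on chromosome 18), and open length per locus, kept where at least 2 libraries had a peak. limma 3.58.1 tested open length and width, and edgeR 4.0.16 (quasi-likelihood) the RNA, in R 4.3.3, with Benjamini-Hochberg adjustment over all features and a threshold of 0.05. DESeq2 1.42.0 was an alternative. These steps were tested on simulated data. Alternatives were overlap, joining gap, list length, narrow peaks, pseudocount, scaling, locus window, each library left out and the replicate number as a block. Members and gene lists were chosen with earlier results of these data known. Genes named are a fixed set of T cell genes, the 8 loci with most gained, most lost, largest increase and largest decrease, up to 3 per list by gained or lost regions, and the 5 widest regions of each class. Markers and other members of lists were named after their values were seen. A few genes of the lists are not reported here.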

Additional observations from a re-analysis of the deposited data

How the results depend on the processing

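Joining peaks by 0.5 of the shorter peak or across 200 bp left gained and lost regions within 1.5 times their counts. Without peaks under 200 bp there were 508 gained regions, and with equal numbers of widest peaks 2775 lost ones, when the promoter share of CAT minus WT turned to -0.90 percentage points, against 5.12 with the full lists. Leaving out a library gave 2004 to 4068 gained and 6439 to 8749 lost regions. For open length it gave 390 to 1679 more open and 524 to 1698 less open loci, and for width 0 to 1233 wider and 0 to 1358 narrower regions. Where these counts were 0, 5728 regions had an unadjusted limma p below 0.05 (without WT library 1). Without scaling there were 174 more open and 10890 less open loci, and 22 wider and 13147 narrower regions. For RNA, limma on log2(FPKM + 1) gave 2099 higher and 1834 lower genes, DESeq2 3342 and 3003, and leaving out a library 2688 to 3583 and 2417 to 3364. The cause of these shifts was not tested.

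Replicate numbers of CAT and WT are shared only as numbers. Deviations of same-numbered libraries correlated at -0.0848 and -0.0220 in ATAC-seq across loci and at 0.061, -0.086 and 0.159 in RNA across genes. With the replicate block there were 354 more open and 756 less open loci, 0 wider and 0 narrower regions by limma (5450 at an unadjusted p below 0.05), 1997 gained and 8713 lost regions, and 3349 higher and 3035 lower genes. The ATAC-seq block leaves WT library 3 without a partner.

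Of the named loci 27 values of open length turned sign where the main or the other value passed the threshold. Without scaling the log2 changes were -0.81 at Il2ra, -0.86 at Tcf7, -0.51 at Axin2, -0.53 at Id3, -0.49 at Itga4, -0.76 at Gata3, -0.057 at Nav2, -0.52 at Rin3, -0.84 at Ikzf1, -0.74 at Ttc39c, -0.63 at Tle4, -0.87 at Bcl9, -0.81 at Jak1, -0.67 at Smad3, -0.73 at Nfkb1, -0.095 at Mcm3, -0.35 at Ccne1, -0.87 at Rrm2, -0.88 at Slc2a1, -0.86 at Ezh2, -0.78 at Eef2, -0.81 at Pgk1 and -0.24 at Spi1. With 20 kb windows they were -0.46 at Il2ra and 0.20 at Hspa1a, and without extension -1.03 at Hspa1b and -1.44 at Klrb1c. A further 1359 values stayed on their side of the threshold, 152 lost it and 53 passed it. Of list counts 960 stayed within 1.5 times and 432 moved beyond. Read depth of the ATAC-seq libraries is unknown, so a peak absent from a list was not detected there and may still be open.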

Other observations

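Gained and lost regions were spread over all chromosomes. Lost regions made up 7.86% of the union regions of chromosome 11 and 14.9% of those of chromosome 14, the lowest and highest shares. Gained regions made up 4.53% of those of chromosome 6, which holds the natural killer gene complex, the highest share.

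Promoters also differed in base composition, and RNA counts are given beside them. The 250 bases before start sites with a gained region had a median GC content of 55.0%, against 60.4% with a lost and 60.8% with a common region. The ETS letters CCGGAAG stood before 3.19% of start sites with a gained region, 4.15% with a lost region and 16.4% with a common region. Of all genes tested in RNA 25.5% were higher and 23.5% lower in CAT. Of the 79 genes with a gained promoter region 29 were tested in RNA, and 12 were higher and 8 lower in CAT. These 29 were at a low level, with a median of 3.22 CPM in CAT and 1.93 CPM in WT. Of the 401 genes with a lost promoter region 243 were tested, and 85 were higher and 61 lower. Of the 8504 with a common promoter region 7644 were tested, and 1875 were higher and 1798 lower. Their medians were 39.7 CPM in CAT and 39.2 CPM in WT. Of the 7599 with no region at the promoter 1068 were tested, and 313 were higher and 227 lower. Of the 907 whose promoter held only other regions 498 were tested, and 170 were higher and 112 lower. A match of letters is a description and not a binding site.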
